A study of Mus musculus with 8 samples.

Results

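The gene set described here is a panel of 38 mouse genes for ribosome biogenesis, the nucleolar pathway that makes ribosomes and that the transcription factor MYC is known to drive. The 38 were taken by name, and every array probe whose RefSeq accession maps to one of those symbols was followed. All 38 were measured, by 51 probes, among 21154 genes named on the arrays and 15116 that could be tested. Of the 38 members, 28 had 1 probe and 10 had several, and all 51 probes were well above background on all 8 arrays, so no member was lost to the filter on dim probes.

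The RNA came from mouse embryonic stem (ES) cells, kept on gelatin with serum and LIF in the medium, and was hybridised to 8 one-colour Agilent arrays. All groups, controls included, carried the same RAS-deficient background with a floxed allele, and RERTert/ert. RERTert is an allele that expresses a tamoxifen-inducible Cre recombinase, and 4-hydroxytamoxifen (OHT) given for at least 2 days was used to delete the floxed gene. The wild type for ERF (ERF-WT), an ETS-family repressor that ERK phosphorylation keeps out of the nucleus, was sampled as the cell pools A1 and B1, and the group labelled ERF-KO as the pools A2 and B2. Each pool was a mix of 2 clones and was measured once untreated and once with OHT, giving 4 groups of 2 arrays. The design asks how gene expression responds when RAS signalling is lost, and whether that response differs without ERF. No group had OHT without the floxed allele, so the effects of the drug and of Cre cannot be told apart from that of the deletion.

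Ribosome production starts in the nucleolus, where RNA polymerase I transcribes the precursor of the 18S, 5.8S and 28S ribosomal RNAs. Small nucleolar ribonucleoproteins guide the methylation (box C/D), pseudouridylation (box H/ACA) and cleavage (U3) of that precursor, and large sets of assembly factors then fold it with ribosomal proteins into the small and the large subunit. MYC binds E-box sequences near many of these genes, and growing ES cells express the pathway strongly. The members are described in that order.

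The promoters of a few members are shown first because MYC binds the E-box CACGTG and ETS factors such as ERF bind a GGAA core. RefSeq gives a window from 250 bases before to 50 after a transcription start (GRCm38.p6) for 33 of the 38 members. The palindrome CACGTG was found in the window of 8 of these 33 members (24.2%), against 8.09% of all 27025 genes with a window and 11.2% of the 12008 of them that were tested on the arrays. The heptamer CCGGAAG, searched on both strands and not overlapping the E-box, was found for 11 of the 33 (33.3%), against 9.93% of all genes and 17.3% of the tested ones. Nop2, Grwd1 and Tsr1 had both, and the 3 windows follow 5′ to 3′ with the matched letters in capitals.
Nop2, chr6:125131633-125131932, plus strand: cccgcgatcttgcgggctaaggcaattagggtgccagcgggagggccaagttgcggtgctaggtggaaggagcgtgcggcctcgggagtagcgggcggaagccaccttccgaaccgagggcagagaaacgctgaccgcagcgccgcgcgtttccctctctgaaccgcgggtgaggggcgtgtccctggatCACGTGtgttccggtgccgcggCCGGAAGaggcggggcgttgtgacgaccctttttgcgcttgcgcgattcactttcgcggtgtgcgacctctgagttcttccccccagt
Grwd1, chr7:45830740-45831039, minus strand: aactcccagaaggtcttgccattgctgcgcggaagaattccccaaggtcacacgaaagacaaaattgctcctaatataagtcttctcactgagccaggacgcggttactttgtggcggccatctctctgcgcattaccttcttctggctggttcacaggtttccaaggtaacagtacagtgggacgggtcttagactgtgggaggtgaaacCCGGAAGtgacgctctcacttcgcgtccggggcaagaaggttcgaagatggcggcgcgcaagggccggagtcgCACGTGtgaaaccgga
Tsr1, chr11:74897830-74898129, plus strand: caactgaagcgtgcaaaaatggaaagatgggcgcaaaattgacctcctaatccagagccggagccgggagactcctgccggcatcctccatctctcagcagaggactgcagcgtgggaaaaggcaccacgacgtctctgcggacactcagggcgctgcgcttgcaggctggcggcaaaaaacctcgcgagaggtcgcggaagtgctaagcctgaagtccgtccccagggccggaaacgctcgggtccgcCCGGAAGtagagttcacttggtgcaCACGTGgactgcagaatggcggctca
Wdr43 stands for the members with the E-box alone, and Nolc1 and Wdr74 for those with the ETS heptamer alone.
Wdr43, chr17:71615965-71616264, plus strand: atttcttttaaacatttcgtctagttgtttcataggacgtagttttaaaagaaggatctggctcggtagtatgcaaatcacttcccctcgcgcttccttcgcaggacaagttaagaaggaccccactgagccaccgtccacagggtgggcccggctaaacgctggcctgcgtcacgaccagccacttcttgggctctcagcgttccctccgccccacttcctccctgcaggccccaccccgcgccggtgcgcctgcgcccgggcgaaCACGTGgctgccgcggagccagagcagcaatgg
Nolc1, chr19:46075597-46075896, plus strand: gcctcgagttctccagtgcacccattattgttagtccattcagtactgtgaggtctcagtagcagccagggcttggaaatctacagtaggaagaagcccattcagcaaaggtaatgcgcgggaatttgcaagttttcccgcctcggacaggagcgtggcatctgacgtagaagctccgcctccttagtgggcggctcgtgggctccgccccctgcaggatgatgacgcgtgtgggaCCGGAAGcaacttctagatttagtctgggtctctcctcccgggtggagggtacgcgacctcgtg
Wdr74, chr19:8735589-8735888, plus strand: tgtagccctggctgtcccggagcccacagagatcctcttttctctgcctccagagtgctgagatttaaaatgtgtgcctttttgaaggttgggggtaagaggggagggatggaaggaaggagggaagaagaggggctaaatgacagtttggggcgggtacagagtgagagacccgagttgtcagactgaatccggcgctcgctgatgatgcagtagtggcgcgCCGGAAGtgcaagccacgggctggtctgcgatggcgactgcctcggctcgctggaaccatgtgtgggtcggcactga
A match describes letters in a window and is not a measured binding site. In the fit by cell pool described below, the 8 members with an E-box had a median log2 change after OHT of -0.22 in the wild type against -0.29 in the labelled knockout, and the 25 without had -0.35 and -0.26. The 11 with the ETS heptamer had -0.25 and -0.29, and the 22 without had -0.34 and -0.26. The ranges of these classes overlapped in both genotypes.

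Values are log2 of the background-subtracted spot signal minus the array's own 75th percentile, so that 0 is the 75th percentile. A gene with several probes is given by its brightest probe that was measured on all 8 arrays. Between 54.0 and 63.6% of the spots of an array were well above background and none was saturated. The 6 arrays of pools A1, A2 and B2 shared a slide and a scan, and the 2 arrays of pool B1 were on another. Signal was low in patches on some arrays, most widely on the OHT array of A2, where 3.90% of the spots lay in such dark patches. The Erf probe did not bear out the label in both knockout pools: its level was 3.25 untreated and 3.73 with OHT in A2, but 5.42 and 5.13 in B2, against 4.73 to 5.21 on the 4 wild type arrays. Whether this probe lies in a deleted part of Erf was not tested, and the group is called the labelled knockout throughout.

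After OHT the panel was lower in every wild type pool. All 38 members were below their untreated level in A1 and in B1, where 40.4% of all genes tested were lower in both pools. The median member changed by -0.31 on the log2 scale, a signal 19.6% lower, while the median of all genes was -0.03. In the labelled knockout, 34 of 38 were lower in both pools (29.1% of all genes), with a median of -0.28, or 17.6% lower, against 0.04 for all genes. The same 34 made up the members lower in all 4 pools, where 21.9% of all genes were lower in all 4. With dark patches left out, 31 of the 35 members measured in every pool were lower in both labelled knockout pools (28.6% of such genes) and in all 4 (21.9%).

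The shift was small and regular. The median over members was -0.23 in A1 and -0.35 in B1, which also gives the value within each slide, and, with dark patches left out, -0.29 in A2 and -0.24 in B2, both on the first slide. The change, with its sign, was lower in B1 than in A1 for 30 of 38 members (48.1% of all genes). In B1, 31 of 38 members lay below the 25th percentile of all genes, and in A1 16 of 38 did. In A2 and B2, with dark patches left out, 28 of 36 and 31 of 37 did. With the normexp background correction the wild type median was -0.21. In bulk RNA a lower signal can mean less RNA per cell or fewer cells that express the gene, and these cannot be told apart here.

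**Figure D1:**
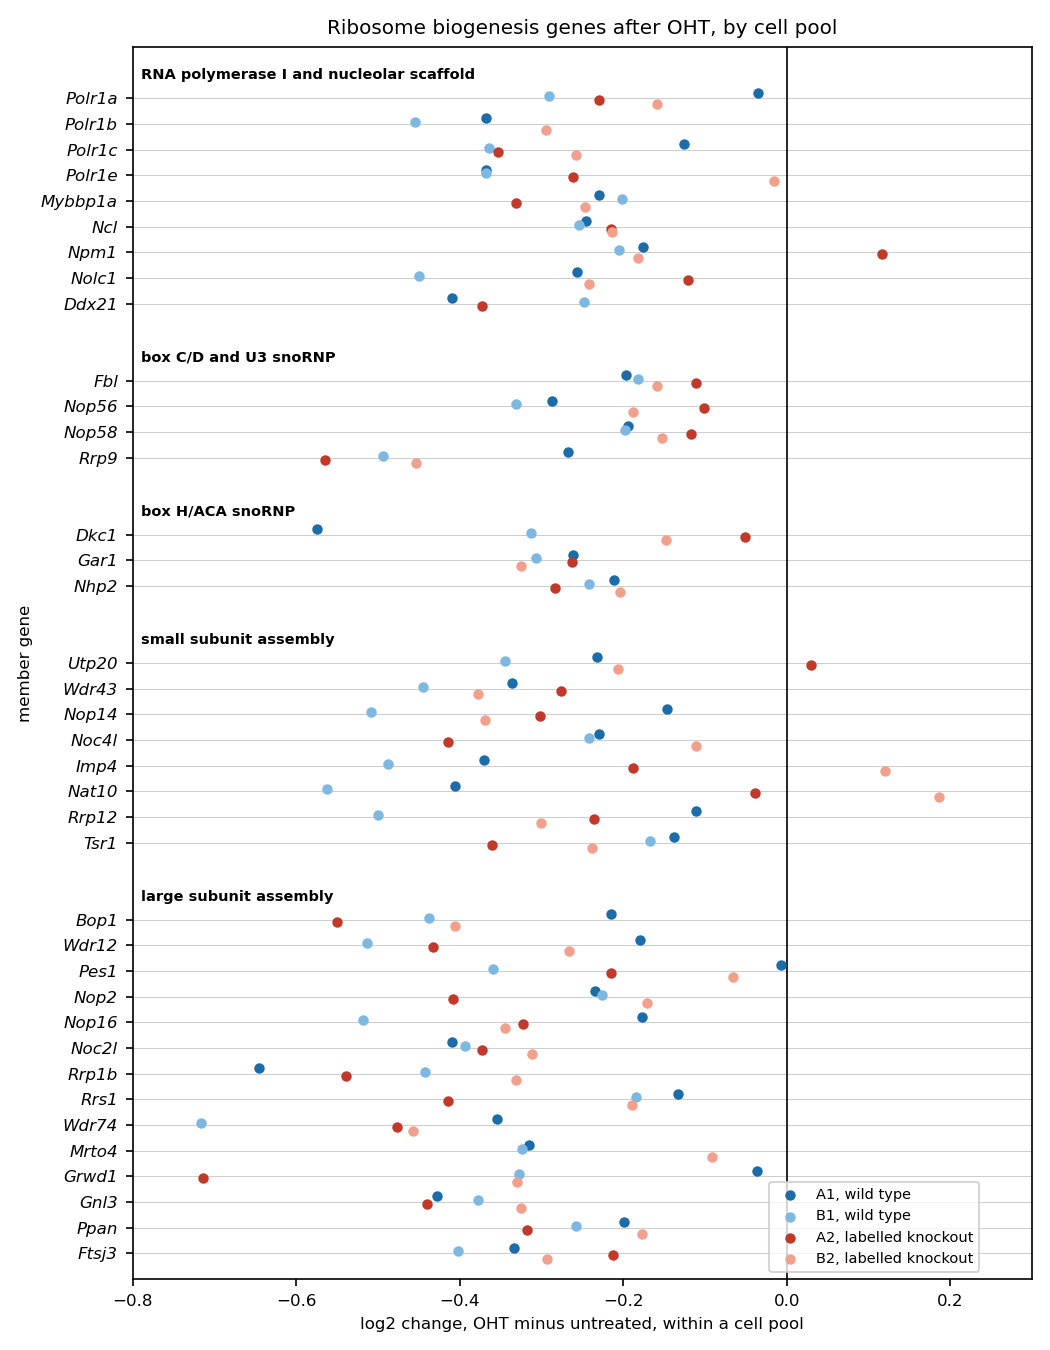
Log2 change after OHT (OHT minus untreated array of the same pool, horizontal axis) of the 38 members (rows, grouped by role) in the wild type pools A1 and B1 (blue) and the labelled knockout pools A2 and B2 (red). Nearly all points lie left of 0; the 4 exceptions are Npm1 and Utp20 in A2 and Imp4 and Nat10 in B2, and the 3 pairs with a spot in a dark patch are not drawn.

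**Figure D2:**
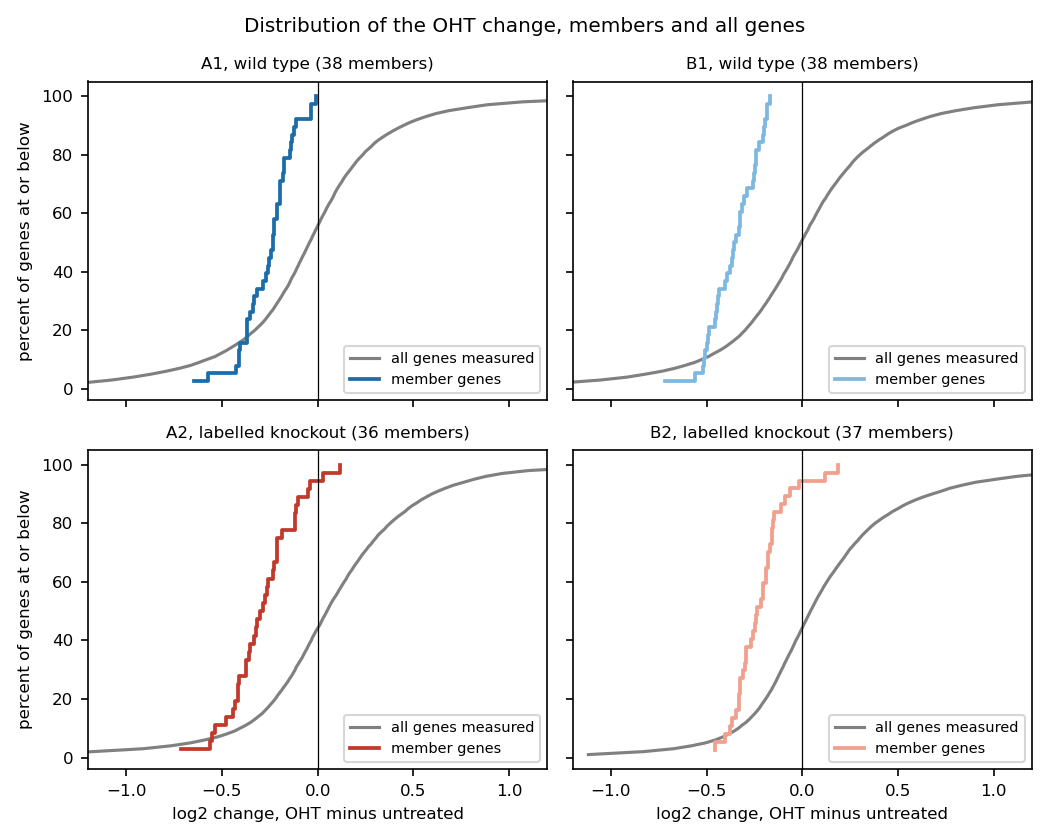
Cumulative share of genes (vertical axis, percent) at or below each log2 change after OHT (horizontal axis) for the members (coloured steps) and for all genes measured (grey) in each pool, dark patches left out. The medians of the members are -0.23, -0.35, -0.29 and -0.24 in A1, B1, A2 and B2, and those of all genes lie between -0.04 and 0.05.

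With the 4 group means as the model, limma called no member and none of the 15116 genes in either OHT comparison (0%). At an unadjusted p of 0.05 or less that fit had 1 member, Rrp1b, lower in the wild type (3.19% of all genes) and 0 higher (2.9%), and in the labelled knockout 0 lower (1.22%) and 0 higher (2.8%). Another limma fit, called the paired fit here, had each pool as a block and a variance estimated with a trend and robustly, and it used no spot that lay in a dark patch. Both OHT arrays lay below both untreated arrays for 28 of 38 members in the wild type (21.5% of all genes) and for 17 of 38 in the labelled knockout (10.1%), or 16 of 35 with dark patches left out (9.47%). The pool is a block because an untreated and an OHT array carry the same source name. The paired fit called 23 of 38 members lower and 0 higher in the wild type, where it called 9.22% of all genes lower and 8.04% higher. In the labelled knockout it called 16 of 38 lower and 0 higher (4.48% and 6.42% of all genes). In the paired fit 12 members fell in both genotypes (3.39% of all genes). The median member was brighter than the median gene tested, at 4.39 against 0.48 on the untreated array of A1. The trended variance depends on brightness, and the shares of all genes were not matched for it. "Fell" is used below for members called by the paired fit at an adjusted p of 0.05.

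These counts rest on few pairs. Without pool A1 the paired fit called 3 members in the wild type (2.37% of all genes were called lower), and without B1 it called 0 (1.97%), the pair that remains then being assumed to vary like the other pools. Without A2 it called 0 in the labelled knockout (2.03% of all genes called lower), and without B2 it called 10 (2.34%). With 1 pool left out, the change in that genotype is the other pool's alone, so its signs only repeat the pool values. All 38 members were below 0 in A1 and in B1, 35 of the 37 measured in B2 and 34 of the 36 measured in A2.

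Of the 9 members for RNA polymerase I and the nucleolar scaffold, 6 fell in the wild type against 3 in the labelled knockout, with medians of -0.25 and -0.21 and all 9 below 0 on average in both genotypes. Ncl encodes nucleolin, an abundant nucleolar RNA-binding protein. Its log2 level was 7.82 (A1) and 8.04 (B1) in untreated wild type and 7.58 and 7.79 with OHT, and 7.71 (A2) and 7.96 (B2) in the untreated labelled knockout and 7.50 and 7.74 with OHT. The 4 pairs moved by nearly the same amount, from -0.25 to -0.21. Ncl fell by 0.25 ± 0.05 (SE, 2 pairs) in the wild type (adjusted p 0.0135) and by 0.21 ± 0.05 in the labelled knockout (0.0341). Here and below the SE is limma's, from a variance shared by both genotypes and drawn toward the trend over all genes. A second Ncl probe, for the same RefSeq transcript but dimmer, was higher after OHT in all 4 pools, by 0.38 in the wild type against 0.32 in the labelled knockout on average. The probes of Ncl therefore disagree in direction, and the mean over both was above 0 (0.06 and 0.05).

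Mybbp1a, which encodes a nucleolar protein that binds MYB, fell in both genotypes, by 0.22 ± 0.06 (adjusted p 0.0337) and 0.29 ± 0.06 (0.0203). Polr1b encodes the second largest, catalytic subunit of RNA polymerase I. Its level was 3.47 and 3.61 in untreated wild type and 3.10 and 3.16 with OHT, so the wild type groups did not overlap, and it fell by 0.41 ± 0.08 (adjusted p 0.0145). In the labelled knockout it was 3.59 and 3.57 untreated and 3.28 with OHT in B2. The OHT array of A2 read -3.54 for Polr1b in a dark patch, so that the change there has only B2 behind it, -0.29 ± 0.11 (adjusted p 0.133).

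Nolc1, which encodes a chaperone of small nucleolar ribonucleoproteins, fell by 0.35 ± 0.07 in the wild type (adjusted p 0.0130) and was -0.18 ± 0.07 in the labelled knockout (0.130). Polr1e, a subunit of the polymerase's initiation module, fell by 0.37 in both wild type pools (adjusted p 0.0278) and was -0.26 in A2 and -0.02 in B2. Ddx21, an RNA helicase of rRNA transcription and processing, fell by 0.33 ± 0.08 in the wild type (adjusted p 0.0284). In the labelled knockout Ddx21 rests on A2 (-0.37), since its spot on the OHT array of B2 lay in a dark patch; a second probe was lower in all 4 pools. Polr1c, a subunit shared with RNA polymerase III, fell in the labelled knockout (-0.31 ± 0.08, adjusted p 0.0414) and was -0.25 ± 0.08 in the wild type (0.0612). Polr1a, the largest catalytic subunit, passed in neither, with pool changes from -0.29 to -0.04.

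Npm1 encodes nucleophosmin, a histone and ribosome chaperone of the nucleolus. Its level was 8.35 and 7.90 in untreated wild type, 8.17 and 7.69 with OHT, 7.99 and 8.48 in the untreated labelled knockout and 8.11 and 8.29 with OHT. The groups overlapped in both genotypes, A2 was higher after OHT by 0.12 and the other pools lower by 0.18 to 0.20. The 5 Npm1 probes were all lower on average in the wild type and ranged for the labelled knockout from -0.28 to 0.29. Npm1 has close copies elsewhere in the genome, and which probes they share was not tested.

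Of the 4 box C/D and U3 members, all were lower in all 4 pools, 2 fell in the wild type against 1 in the labelled knockout. Fbl (fibrillarin, the methyltransferase), Nop56 and Nop58 are core proteins of the box C/D particle, and Rrp9 binds the U3 RNA that directs early cleavages. Rrp9 was 4.24 and 4.56 in untreated wild type and 3.97 and 4.06 with OHT, and 4.08 and 4.33 in the untreated labelled knockout and 3.52 and 3.87 with OHT. The groups did not overlap in either genotype. Rrp9 fell by 0.38 ± 0.08 (adjusted p 0.0171) in the wild type and by 0.51 ± 0.08 (0.0114) in the labelled knockout, with a difference of -0.13 (95% interval -0.39 to 0.14). Nop56 fell by 0.31 ± 0.06 in the wild type (adjusted p 0.00958) and was -0.14 ± 0.06 in the labelled knockout (0.137). Fbl and Nop58 were near -0.19 and -0.20 in the wild type and near -0.13 and -0.14 in the labelled knockout, and passed in neither.

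The 3 box H/ACA members are the pseudouridine synthase dyskerin (Dkc1) and its partners Gar1 and Nhp2, and all 3 were lower in all 4 pools. Gar1 was 6.0 and 6.17 in untreated wild type, 5.74 and 5.86 with OHT, 6.16 and 6.34 in the untreated labelled knockout and 5.90 and 6.02 with OHT. It fell by 0.28 ± 0.06 (adjusted p 0.0154) and 0.29 ± 0.06 (0.0229), with a difference of -0.01 (95% interval -0.20 to 0.18). Nhp2 fell by 0.23 ± 0.05 (adjusted p 0.0251) and 0.24 ± 0.05 (0.0298). Dkc1 fell by 0.44 ± 0.10 in the wild type (adjusted p 0.0217) and was -0.10 ± 0.10 in the labelled knockout (0.555). Its level was 2.04 and 1.62 in untreated wild type and 1.46 and 1.31 with OHT, against 1.31 and 1.97 and then 1.26 and 1.82 in the labelled knockout, where the groups overlapped. The 2 labelled knockout pools were further apart than the OHT change in either.

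The 8 members for small subunit assembly were less uniform in the labelled knockout. All 8 were lower in both wild type pools and 3 fell there (Wdr43, Imp4 and Nat10), while 5 were lower in both labelled knockout pools and 2 fell (Wdr43 and Tsr1). Wdr43, a component of the early small subunit processome, was 4.66 and 4.98 in untreated wild type and 4.33 and 4.53 with OHT, and 4.43 and 4.99 in the untreated labelled knockout and 4.15 and 4.61 with OHT. It fell by 0.39 ± 0.07 (adjusted p 0.00884) and 0.33 ± 0.07 (0.0274), and its second probe was also lower in all 4 pools. Nat10 encodes the acetyltransferase that modifies 18S rRNA. Nat10 was 4.55 and 4.48 in untreated wild type and 4.15 and 3.92 with OHT, and 4.23 and 4.35 in the untreated labelled knockout and 4.19 and 4.53 with OHT. The wild type groups were well apart, and the highest labelled knockout value was an OHT array.

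Nat10 fell by 0.48 ± 0.08 in the wild type (adjusted p 0.00729), and in the labelled knockout it was 0.07 ± 0.08 (0.594). The difference between genotypes, 0.56 (95% interval 0.29 to 0.83, unadjusted p 0.00144), was the largest among the 38 and did not pass over all genes (adjusted p 0.228). Imp4, a U3-associated processome protein, showed the same order: 3.49 and 3.35 in untreated wild type, 3.12 and 2.86 with OHT, 3.42 and 3.34 in the untreated labelled knockout and 3.23 and 3.46 with OHT. Imp4 fell by 0.43 ± 0.09 in the wild type (adjusted p 0.0185), and its difference was 0.40 (95% interval 0.09 to 0.70, adjusted p 0.476). Tsr1, a late factor of small subunit maturation, fell in the labelled knockout by 0.30 ± 0.07 (adjusted p 0.0438) and was -0.15 ± 0.07 in the wild type (0.207). Nop14, Noc4l and Rrp12, which act in or after the processome, were lower in all 4 pools, by -0.51 to -0.11, and passed in neither genotype. Utp20, a large processome scaffold, was -0.23 and -0.34 in the wild type pools, 0.03 in A2 and -0.21 in B2.

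Of the 14 members for large subunit assembly, 13 were measured outside dark patches in every pool and all 13 were lower in all 4. Among the 14, 9 fell in the wild type against 8 in the labelled knockout, 6 of them in both. The median was -0.34 in the wild type and, with dark patches left out, -0.34 in the labelled knockout, the lowest of the 5 roles in both genotypes. Wdr74, which acts in processing of the large subunit precursor, was 3.99 and 4.25 in untreated wild type and 3.63 and 3.53 with OHT, and 3.57 and 4.03 in the untreated labelled knockout and 3.09 and 3.58 with OHT. The wild type groups did not overlap; in the labelled knockout B2 with OHT lay beside A2 untreated. Wdr74 fell by 0.54 ± 0.09 (31.0%, adjusted p 0.00872) in the wild type and by 0.47 ± 0.09 (27.7%, adjusted p 0.0242) in the labelled knockout.

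Rrp1b, a nucleolar protein of pre-rRNA processing, was 1.57 and 1.74 in untreated wild type and 0.92 and 1.30 with OHT, and 1.62 and 1.75 in the untreated labelled knockout and 1.08 and 1.42 with OHT. The groups did not overlap in either genotype, and Rrp1b fell by 0.54 ± 0.10 (31.4%, adjusted p 0.0112) and 0.43 ± 0.10 (26.0%, adjusted p 0.0368). Gnl3 encodes nucleostemin, a nucleolar GTPase abundant in stem cells. It was 4.12 and 4.07 in untreated wild type, 3.69 on both OHT arrays, and 3.83 and 4.19 in the untreated labelled knockout with 3.39 and 3.87 after OHT. Gnl3 fell by 0.40 ± 0.07 (adjusted p 0.00891) and 0.38 ± 0.07 (0.0193). Noc2l, which escorts the precursor through the nucleolus, was 4.92 and 5.05 untreated and 4.51 and 4.66 with OHT in the wild type, and 4.65 and 4.99 and then 4.28 and 4.68 in the labelled knockout. Noc2l fell by 0.40 ± 0.06 (adjusted p 0.00583, the lowest of the 38 in the wild type) and 0.34 ± 0.06 (0.0193). Over the 32 settings run, its adjusted p ranged from 0.00433 to 1.00 in the wild type and was under the threshold in 8 of them.

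**Figure D3:**
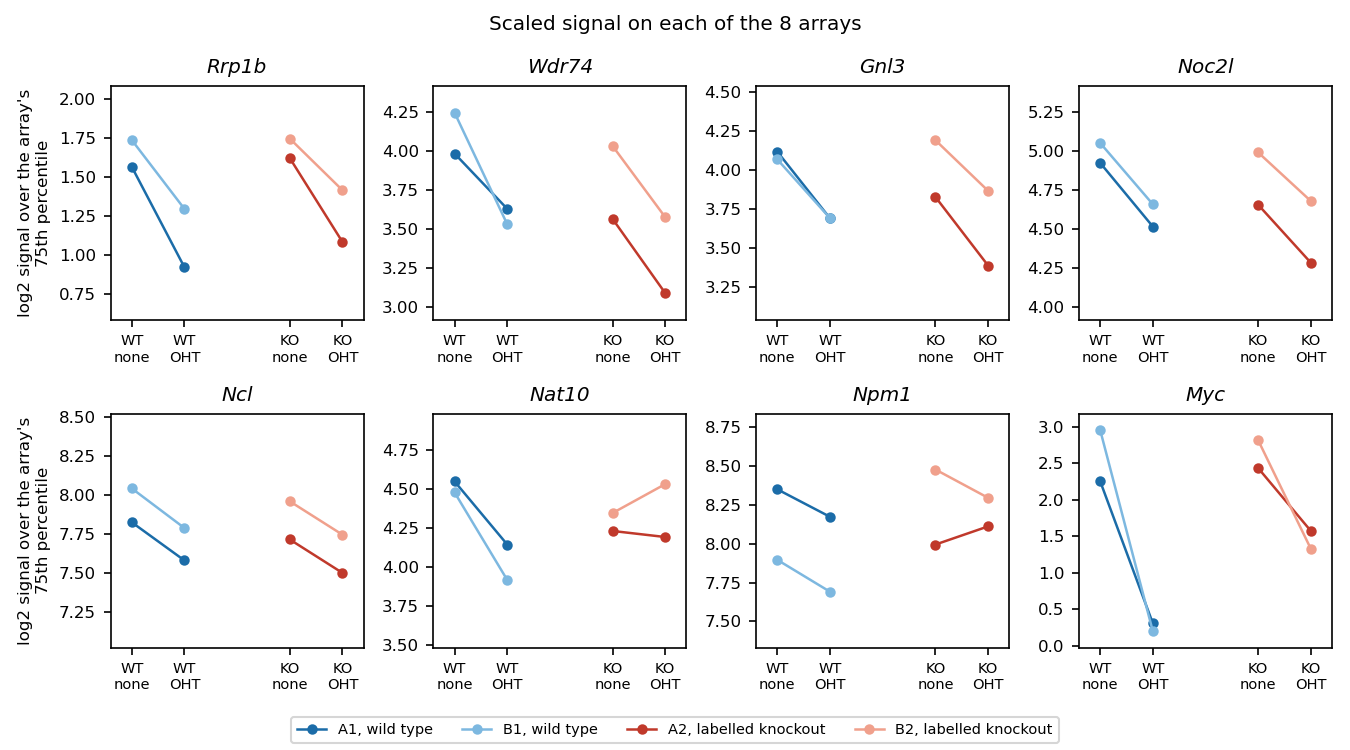
Log2 signal over the array's 75th percentile (vertical axis; each panel has its own position, and Myc a wider range) on each of the 8 arrays for 7 members and Myc, with lines joining the untreated and the OHT array of a pool (WT, wild type; KO, labelled knockout; none, untreated). The lines slope down in all 4 pools for Rrp1b, Wdr74, Gnl3, Noc2l, Ncl and Myc, up in B2 for Nat10 and up in A2 for Npm1.

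Bop1, Pes1 and Wdr12 form the PeBoW complex, which processes the spacer between the 5.8S and 28S sequences. Bop1 fell by 0.33 ± 0.08 (adjusted p 0.0271) in the wild type against 0.48 ± 0.08 (0.0125) in the labelled knockout. Wdr12 was -0.35 ± 0.10 in both genotypes and passed in neither (adjusted p 0.0584 and 0.0714). Pes1 had the smallest change of the complex, from -0.36 in B1 to -0.01 in A1, with the 2 pools of each genotype further apart than the change. Ppan, a factor of 28S maturation, fell by 0.23 and 0.25 (adjusted p 0.0438 and 0.0463).

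Nop16 and Ftsj3, an rRNA methyltransferase, fell in the wild type by 0.35 and 0.37 (adjusted p 0.0414 and 0.0141), and were -0.33 and -0.25 in the labelled knockout (0.0616 and 0.0664). Mrto4, which prepares the stalk site of the large subunit, fell by 0.32 in both wild type pools (adjusted p 0.0214). Its level on the A2 array with OHT, -2.34 against 4.44 to 4.95 elsewhere, lay in a dark patch, which leaves B2 at -0.09. Nop2, which methylates cytosine in 28S rRNA, fell in the labelled knockout by 0.29 ± 0.07 (adjusted p 0.0397) and was -0.23 ± 0.07 in the wild type (0.0602). Grwd1, a ribosome assembly and histone chaperone, fell by 0.52 ± 0.12 in the labelled knockout (adjusted p 0.0377) and was -0.18 ± 0.12 in the wild type (0.364). The brighter Grwd1 probe, marked as an outlier on the OHT array of B2, gave -0.21, -0.26 and -0.48 in A1, B1 and A2. Rrs1, which brings the 5S particle into the large subunit, was lower in all 4 pools and passed in neither genotype (adjusted p 0.229 and 0.0552).

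For none of the 38 was a difference between genotypes in the OHT change called. The median difference, labelled knockout minus wild type, was 0.03 with group means and 0.04 in the paired fit, where the median over all genes was 0.05 and 0.06. Neither limma fit called any member or any gene (0%), and at an unadjusted p under 0.05 the paired fit had 3 members with the smaller fall in the labelled knockout, Nat10, Imp4 and Dkc1 (6.14% of all genes lay on that side), and 0 on the other (2.4%). With group means 0 members passed unadjusted in either direction (1.1% and 0.198% of all genes). The single-gene intervals were wide: for Gnl3, which fell by 0.40 and 0.38, the difference was 0.02 with a 95% interval of -0.21 to 0.25. A p that misses the threshold does not show that the genotypes respond alike.

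**Figure D4:**
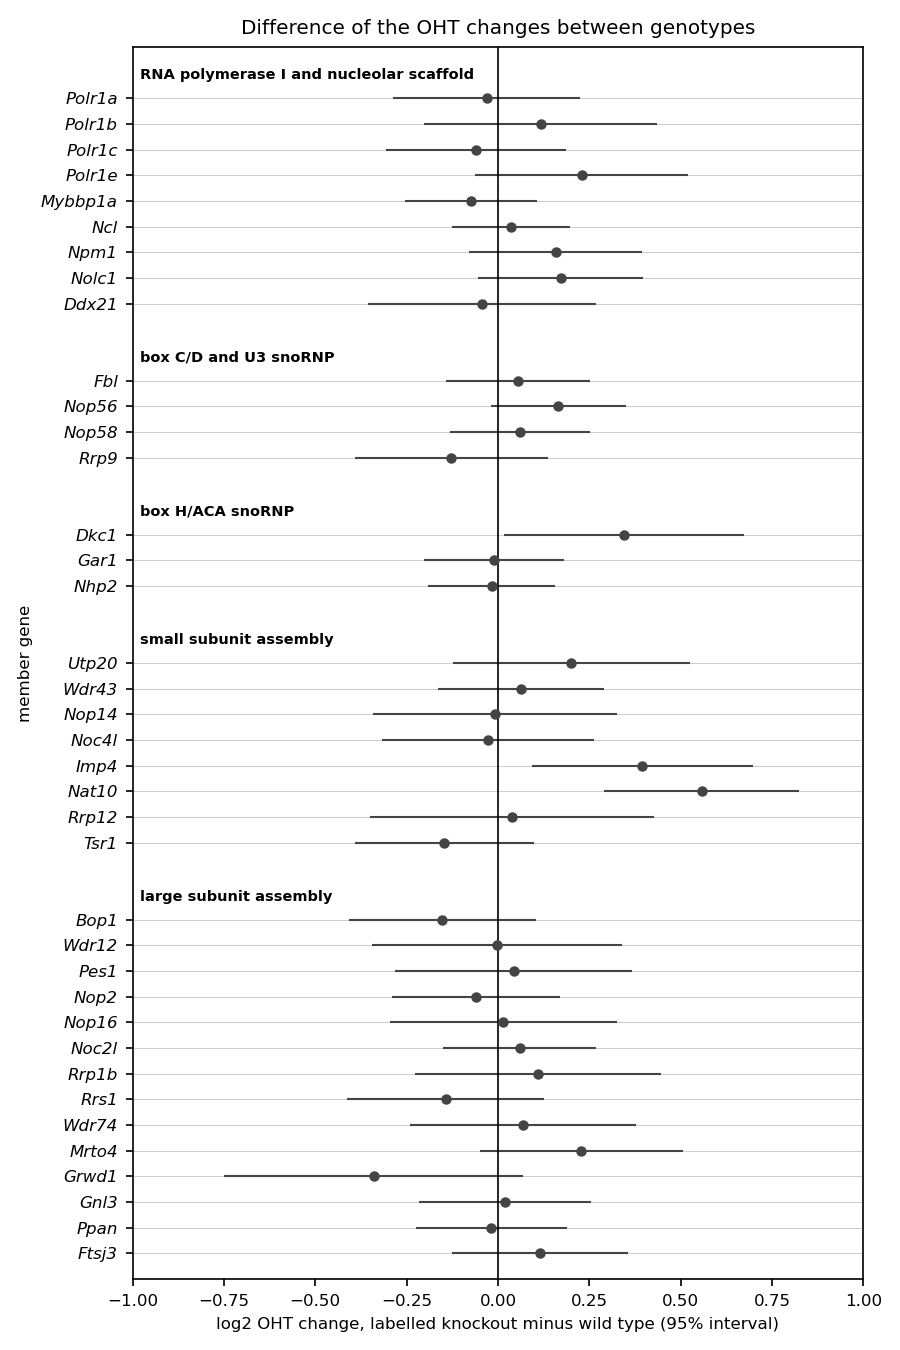
Difference of the log2 OHT change, labelled knockout minus wild type (horizontal axis), for the 38 members by role, from the paired fit; points are estimates and bars their 95% intervals, unadjusted. The bars of Nat10, Imp4 and Dkc1 do not reach 0, and no adjusted p is under 0.228.

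No difference in level between the genotypes was called for a member, with or without OHT. The median of the labelled knockout minus the wild type over members was -0.00 untreated and 0.01 with OHT, against -0.02 and 0.04 for all genes. Neither limma fit called a member or any gene (0%), and 0 members had an unadjusted p under 0.05 in either. Of all genes, unadjusted, 1.04% were lower and 0.251% higher untreated with group means (0.0926% and 0.119% in the paired fit), and with OHT 0.8% and 1.46% (0.556% and 0.992%). Both labelled knockout arrays lay above both wild type arrays for 2 members untreated (9.41% of all genes) and for 7 with OHT (16%), and below for 1 (11.5%) and 2 (8%).

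Pools with the same label also differed in level. Members were lower in A2 than in B2 for 33 of 38 untreated (55.6% of all genes) and 35 of 38 with OHT (58.4%; 32 of 35 members with dark patches left out), with a median of 0.18 and 0.34 in favour of B2. In the wild type A1 lay below B1 for 25 and 21 of 38 (54.7% and 56.6%), with medians of 0.08 and 0.04. A2 is also the pool with the low Erf signal, and its 7 measured ES cell markers summed to 261 untreated and 272 with OHT, in multiples of the 75th percentile, against 336 to 483 on the other 6 arrays. The median ES cell marker was higher in B2 than in A2 by 1.16 untreated and 0.90 with OHT.

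Fibroblast and feeder markers had median changes above 0 after OHT in all 4 pools, highest in A2. The 7 measured ES cell markers also had median changes above 0 in all 4, of 0.22 in A1, 0.18 in B1, 0.14 in A2 and 0.17 in B2. Of 8 fibroblast and feeder markers 7 were measured and 6 lay outside dark patches; their summed signal, in multiples of the 75th percentile, went from 18.6 to 35.3 with OHT in A2, against 13.3 to 14.0 in A1, 24.0 to 26.8 in B1 and 17.2 to 18.8 in B2. Their median change, dark patches left out, was 0.10 in A1, 0.15 in B1, 0.91 in A2 and 0.32 in B2. The paired fit called 1 of the 7 fibroblast and feeder markers higher in the labelled knockout, Col1a2 (0.57 ± 0.14, adjusted p 0.0467), against 6.42% of all genes. In the wild type it called 0 of these 7 higher, against 8.04% of all genes. The part of these markers in the members' change was not tested. The fibroblast markers differed widely in level. Col1a2 lay above the 75th percentile on all 8 arrays (3.08 to 4.57), while Dcn lay between -4.91 and -2.62 and Lum was not well above background on any array. The 6 measured primitive endoderm markers summed to 0.89 to 2.14. Of the ES cell markers, Pou5f1 and Nanog were well above background on all 8 arrays.

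Myc itself was lower after OHT in all 4 pools, and by more than any member. Its level was 2.26 and 2.96 in untreated wild type and 0.31 and 0.20 with OHT, and 2.43 and 2.81 in the untreated labelled knockout and 1.57 and 1.33 with OHT. Myc fell by 2.35 ± 0.22 (adjusted p 0.00155) in the wild type and by 1.17 ± 0.22 (0.0264) in the labelled knockout, and the difference of 1.18 was not called (0.393). Mycn, its paralogue in ES cells, fell by 0.70 ± 0.11 (adjusted p 0.00577) and 0.43 ± 0.11 (0.0467). Mycl, which was dim (-3.67 to -1.12), rose in the labelled knockout by 1.49 ± 0.28 (adjusted p 0.0208) and was 0.06 ± 0.28 in the wild type (0.906). Max, the common partner, was -0.24 and -0.32 and passed in neither (adjusted p 0.103 and 0.0582). The antagonists Mxd1, Mxd3, Mxd4 and Mnt, and Mlx and Mga, passed in neither genotype.

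Other ribosome biogenesis genes, a list of 128 that holds none of the members, showed the same direction. Of the 124 tested, 46 fell and 0 rose in the wild type, 32 fell and 0 rose in the labelled knockout, and 89 of the 115 measured outside dark patches in every pool were lower in all 4. Of all genes, 9.22% fell and 8.04% rose in the wild type, and 4.48% and 6.42% in the labelled knockout. Outside dark patches, 21.9% of all genes were lower in all 4 pools. Their medians were -0.22, -0.30, -0.21 and -0.22 in A1, B1, A2 and B2. Naf1, an assembly factor of box H/ACA particles, fell by 0.76 ± 0.07 (adjusted p 0.000807) and 0.72 ± 0.07 (0.00257), more than any of the 38 in either genotype. Dimt1, an 18S rRNA dimethyltransferase, fell by 0.48 ± 0.09 (adjusted p 0.0105) and 0.37 ± 0.09 (0.0377), and Nifk, which binds the proliferation antigen Ki-67, fell by 0.46 ± 0.08 (0.00663) and 0.40 ± 0.08 (0.0200). Ubtf, which opens ribosomal DNA for RNA polymerase I, was 0.06 and -0.18 and passed in neither (adjusted p 0.531 and 0.0912).

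Of 14 genes for RNA polymerase III, its assembly and its regulators, 2 fell in the wild type, Polr3g (-0.31 ± 0.08, adjusted p 0.0376) among them, and 0 in the labelled knockout, with 7 of 12 measured outside dark patches lower in all 4 pools. Of 24 other MYC-regulated growth genes, 7 fell in the wild type against 5 in the labelled knockout, 3 of them in both (Srm, Nme1 and Ldha), and 14 of 23 measured outside dark patches were lower in all 4 pools. For comparison, the paired fit called 9.22% of all genes lower in the wild type, 4.48% in the labelled knockout and 3.39% in both. The share of all genes lower in all 4 pools, outside dark patches, was 21.9%. Srm, the spermidine synthase, fell by 0.59 ± 0.07 (adjusted p 0.00184) and 0.66 ± 0.07 (0.00305). Ldha, lactate dehydrogenase A, fell by 0.45 ± 0.07 (adjusted p 0.00600) and 0.50 ± 0.07 (0.00842). Cdk4, Nme2 and Tfrc passed in neither.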

How the data were processed

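RNA was labelled with Cy3 and hybridised to 8 one-colour Agilent arrays. The deposited files are scanner output, per the file headers from Agilent Feature Extraction 11.5.1.1, and hold a background-subtracted intensity for each spot; the series value table was not used. Control and flagged spots were left out, spots of a probe averaged, and probes named through RefSeq accessions (28026 of 55681 named). Each array's log2 intensity, as deposited, was scaled to its 75th percentile. Tested were genes with a probe that, in 1 group or more, was well above background on each array. Tests used limma 3.58.1 in R 4.3.3 over 15116 genes, with Benjamini-Hochberg adjustment and a threshold of 0.05. The main fit had 4 group means (4 residual degrees of freedom) and the paired fit had pools as blocks (2), a trended and robust variance and no spots in dark patches. That holds for the OHT changes and their difference. For levels between genotypes, where each pool has 1 genotype, the fit of that name had 4 group means (4) and an estimated correlation within pools instead. A dark patch is where the median deviation over 7 by 7 spots is under -0.3.

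The pairing comes from the source names. As a check, deviations from the group means correlated across genes at 0.658 for the wild type pair of groups and at 0.442 for the labelled knockout pair (0.749 and 0.718 with no dark patches). Groups of different genotype, which share no pool, correlated at 0.225 to 0.507 (0.410 to 0.555 with no dark patches). With the patches kept, the labelled knockout pair was thus not above all of these, and the check alone does not establish the pairing. The labels call A1 and B1, and A2 and B2, biological replicates. With group means, p-values measure the spread between such pools, and A1 and B1 differ in slide as well. For the OHT changes in the paired fit, they rest on the spread of the change between pools. In both fits that spread is estimated once per gene for both genotypes. limma then draws it toward the spread of the other genes, so it is not that of the gene's own pairs alone. The members and all gene lists were chosen with earlier results of these data known. Named are all members, and from other lists genes called in the paired fit, up to 4 of the largest changes in each direction, and the Myc family. The number of arrays limits precision. Promoter windows are from RefSeq, GRCm38.p6. The check of the targeted RAS gene's own level is not reported here.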

Additional observations from a re-analysis of the deposited data

Results flagged for a closer look

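None of the 38 members moved in opposite directions in the genotypes with all pools on the same side. Among genes of the other lists, 177 without the cell type markers, 10 did: both wild type pools moved one way after OHT and both labelled knockout pools the other. The share of all genes that did so is not given here, so neither count can be called high or low. For none of the 10 did the difference pass with limma over all genes; each difference below is the labelled knockout minus the wild type on the log2 scale. Lyar differed by 3.21 (adjusted p 0.412 in the paired fit), with changes of -0.95 and -0.87 in A1 and B1 and 2.19 and 2.41 in A2 and B2; it was well above background on 4 of 8 arrays. Exosc1 differed by 0.96 (adjusted p 0.295), Ddx10 by 0.65 (0.353), Nol10 by 0.48 (0.575) and Bud23 by 0.48 (0.279). Taf1b differed by -0.54 (adjusted p 0.580) and Mphosph6 by -0.30 (0.494). Ccnd2 differed by 0.49 (adjusted p 0.634), Mlx by -0.28 (0.580) and Mga by 0.18 (0.765). Exosc1, Ddx10 and Bud23 fell in the wild type in the paired fit, by 0.62, 0.48 and 0.29.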

How the results depend on the processing

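With group means, 0 members were called in each of the 5 comparisons under every scaling, background, filter, probe and slide setting, and with the pool as a replicate block alone or with dark patches left out. The replicate block with a trended and robust variance called 15 members in the wild type against 4 in the labelled knockout (5.38% and 1.41% of all genes were called lower), and with dark patches out as well 23 and 16 (9.22% and 4.48%). That paired fit called 16 and 14 (8.18% and 5.64% of all genes) with quantile normalization (chosen, as are the next settings, after seeing the data), 23 and 17 with median scaling (9.35% and 5.57%), 14 and 14 with normexp (12.3% and 4.53%), and 19 and 7 with the mean of a gene's probes (6.69% and 2.24%). Of the 23, 16 remained called with quantile normalization and 13 with normexp, and of the 16, 11 and 11. Leaving out 1 pool gave 3 (A1), 27 (A2), 0 (B1) and 27 (B2) in the wild type and 9, 0, 10 and 10 in the labelled knockout, where between 1.97% and 12.1% and between 2.03% and 2.91% of all genes were called lower. The paired fit called no member in the 3 comparisons between genotypes.

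The member median in the wild type was -0.21 with normexp, in both fits, and between genotypes without OHT it was 0.057 with normexp, in both fits. With 1 array left out in turn the median ranged from -0.36 to -0.27 in the wild type, -0.43 to -0.12 in the labelled knockout, -0.14 to 0.18 for the difference, -0.074 to 0.10 between genotypes untreated and -0.14 to 0.17 with OHT. Calls then ranged from 0 to 2 in the labelled knockout, for the difference and between genotypes with OHT; the 2 were Polr1b and Mrto4 without the OHT array of B2, which leaves the dark patch of A2. Ncl turned above 0 with the mean of its probes in both genotypes, and in the labelled knockout Npm1 did with quantile normalization (0.07) and the mean of probes (0.01), and Imp4 with quantile normalization (0.02).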
